A study of Mus musculus with 6 samples.

Results

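Apoe, Trem2, Lpl, Cd36, Lgals3, Fabp4, Fabp5, Plin2 and Abca1 are 9 genes of lipid handling that macrophages can use. They were taken as a named list, and all 9 were found by symbol among the 32285 genes counted. RNA of single cells was measured in sciatic nerve of C57BL6/J mice, 23 weeks old, kept on a high fat diet (HFD) or on SD, the label of the diet it was set against, and no transgene or deletion is named in the labels. In both diets, cells were selected on beads that bind O4, a lipid antigen on Schwann cells and oligodendrocytes, and were sequenced from the 3' end in droplets, where each UMI stands for 1 captured molecule. Counts were analysed for 163 HFD cells in 2 libraries and 201 SD cells in 3 libraries. The labels call all samples Schwann cells, and nothing in them says how many mice a library holds. The authors' cell table names 143 of the 364 cells Macrophages (82 HFD and 61 SD). These 143 cells carry most of what follows, and 0 cell barcodes were shared between libraries.

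Macrophages in tissue take up lipoproteins and dying cells, whose lipids they break down, store in droplets or pass on. In injured nerve they clear myelin, a lipid-rich membrane. Lpl, lipoprotein lipase, cuts triglycerides in lipoproteins. Cd36 is a scavenger receptor for fatty acids and oxidised lipoproteins, and Trem2 is a receptor for lipids and apolipoproteins. Plin2 coats lipid droplets, while Fabp4 and Fabp5 bind fatty acids inside the cell. Abca1 exports cholesterol to apolipoproteins, among them Apoe. Lgals3 (galectin-3) is a lectin used as a marker of phagocytic and lipid-laden macrophages.

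The HFD libraries held 40 and 42 macrophages with 223683 and 144980 UMIs, and the SD libraries held 29, 24 and 8 with 143482, 61635 and 8291 UMIs. Depth per cell differed as much within a diet as between diets. The median macrophage had 6941 and 818.5 UMIs in HFD replicates 1 and 2, and 3556, 595 and 147.5 UMIs in SD replicates 1, 2 and 3. In SD replicate 3, 1 cell held 7121 of the 8291 UMIs, and its values mostly describe that cell; with under 10 macrophages it was left out of the test within them. All 15 macrophage markers looked for were detected in the Macrophages, with a summed level of 26018 ± 2958 CPM (counts scaled to the same total of UMIs in every library and cell type; standard deviation over the 5 libraries). At least 3 of these markers were counted in 72 of 82 HFD and 55 of 61 SD macrophages. Of markers of other cells, Ly6g, Retnlg, Cxcr2 and Stfa2l1 of the neutrophil list, Ly6c2 of monocytes and 7 of 8 adipocyte markers were at 0, and the 3 endothelial markers detected summed to 9.62 ± 9.28 CPM. Of all 143 cells, 64 also carried markers of myelin-forming Schwann cells (7 of 8 detected), which summed to 411 and 366 CPM in the HFD libraries and 167, 341 and 2050 CPM in the SD libraries. The other 4 neutrophil markers summed to 206 and 186 CPM on HFD and to 105, 16.2 and 362 CPM on SD. Of the 5 monocyte markers, 4 were counted in 36 of the 143 cells, at 273 and 441 CPM on HFD and 390, 422 and 0 CPM on SD. Of the 3 markers of the Schwann lineage, Sox10 and S100b were at 0, and Egr2, which myeloid cells can also express, was counted in 34 cells, at 121 and 193 CPM on HFD and 62.7, 48.7 and 0 CPM on SD. The macrophage markers themselves were lower in both HFD libraries (25174 and 21962 CPM) than in the SD libraries (30192, 26105 and 26655 CPM). The part of these markers in the diet differences below was not tested for Lpl and Lgals3, as without the cells that carried markers of other types only Apoe and Cd36 of the 9 kept enough counts (log2 fold changes -0.08 and 0.97).

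Most UMIs of 8 of the 9 genes lay in the Macrophages. Their share was 98.4% of 182 UMIs for Trem2, 94.8% of 12866 for Apoe, 84.5% of 187 for Lpl, 80.4% of 102 for Plin2, 77.8% of 117 for Abca1, 76.2% of 760 for Cd36, 72.1% of 262 for Lgals3 and 53.4% of 58 for Fabp5. Fabp4 was the exception, with 0.230% of its 435 UMIs, a single molecule. Macrophages also held a large part of all UMIs, so a gene of even level would have a large share there. Pooled over libraries, Fabp5 stood at 53.3 CPM in Macrophages and 50.2 CPM over all cells, so its share was near that of all UMIs. Lgals3, with the next lowest share of the 8, stood at 325 CPM in Macrophages and 227 CPM over all cells. The authors' cell types were made from the expression of these same cells, so these shares are a description and not a test.

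**Figure D1:**
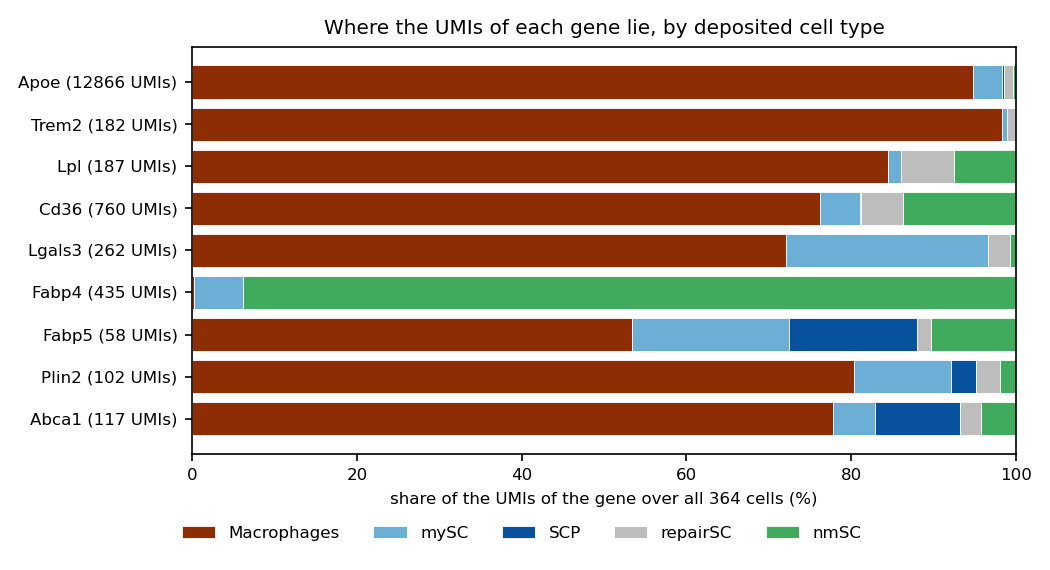
Share of each gene's UMIs (percent, horizontal axis) in each of the authors' 5 cell types, summed over the 5 libraries. Trem2 and Apoe lay almost wholly in Macrophages, Fabp4 lay almost wholly in the cells named nmSC (93.8%), and Fabp5 was spread over all types.

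The cells named SCP, which carried all 8 myelin markers, served as a measure of stray RNA, with 60 cells and a median of 4230 UMIs, against a median of 1064 UMIs in Macrophages. Trem2, Lpl, Lgals3 and Fabp4 were counted in 0 of these 60 cells, which allows a share of up to 5% of cells with a UMI. When every cell was thinned to 500 UMIs, Apoe was counted in 4.55% of SCP and 89.1% of Macrophages. Cd36 was counted in 34.9% of Macrophages and 0.204% of SCP at that depth, Abca1 in 9.29% of Macrophages and 2.16% of SCP, and Plin2 in 6.96% of Macrophages and 0.601% of SCP. Fabp5 was counted in 2.03% of Macrophages and 1.94% of SCP (8 of 143 and 8 of 60 cells without thinning), so its share did not tell the types apart. Its UMIs per cell did differ, with up to 11 in a macrophage and at most 2 in an SCP cell. Whether Fabp5 in SCP was stray RNA was not tested. Other cell types came closer to Macrophages than SCP did for Lpl and Lgals3. At 500 UMIs Lpl was counted in 7.17% of Macrophages and 7.33% of the cells named nmSC. As a mean over libraries, Lpl stood at 196 CPM in Macrophages and 218 CPM in cells named repairSC (12 UMIs). Lgals3 stood at 229 CPM in Macrophages and 258 CPM in cells named mySC, though at 500 UMIs it was counted in 10.1% and 5.10% of them.

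Outside the Macrophages, part of the signal sat in cells with macrophage markers. Of 7 other cells with at least 10 UMIs of Apoe, 4 carried at least 3 macrophage markers, and these 4 held 476 of the 561 UMIs. Both other cells with Trem2 carried such markers. Lgals3 was counted in 13 other cells (11 HFD and 2 SD), of which 8 carried at least 3 macrophage markers and 5 carried at least 10 UMIs of neutrophil markers. Of 12 other cells with Plin2, 8 carried at least 3 macrophage markers. So did 6 of 10 other cells with at least 5 UMIs of Cd36, which held 68 of the 172 UMIs. Lpl, Abca1 and Fabp5 differed from these genes. At least 3 macrophage markers were carried by 3 of 15 other cells with Lpl and 3 of 16 with Abca1, and 6 of each carried endothelial markers. Fabp5 was counted in 17 other cells (5 HFD and 12 SD). Of these, 12 carried at least 10 UMIs of myelin markers and 1 carried 3 or more macrophage markers.

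Fabp4 was counted in 8 cells in all. The 7 cells with at least 5 UMIs held 434 of the 435, and the 8th was an HFD macrophage with 1 UMI. Endothelial markers were found in 6 of the 7 cells, with 173 UMIs over 7 of the 8 markers, while no fibroblast marker was counted in any of them. Macrophage markers (70 UMIs of 8 markers) were found in 2 of the 7, and adipocyte markers (9 UMIs of 3 markers) in 1. A cell named mySC held 69 of the 70 UMIs of macrophage markers, with 14 UMIs of Fabp4 and 1 of endothelial markers. Cd36 was carried by 6 of the 7 cells with 122 UMIs, 16.1% of all Cd36 counted, and Lpl by 5 with 11 UMIs. Within the cells named nmSC, of which 20 of 24 carried fibroblast markers, Cd36 stood at 0 and 2631 CPM in the HFD libraries and at 1357 and 0 CPM in SD replicates 1 and 2. Without the Fabp4-rich cells it was 0 in all 4 of these libraries. Most Fabp4 UMIs thus lay in a few cells with endothelial markers, and Fabp4 gives no measure of the macrophages here.

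Among the uptake genes, Lpl was higher in macrophages of both HFD libraries. It reached 291 CPM in HFD replicate 1 and 490 CPM in HFD replicate 2, against 118, 81.1 and 0 CPM in SD replicates 1, 2 and 3. The 0 of SD replicate 3 is weak, since 3 counts in its 8291 UMIs would already be 362 CPM. The HFD and SD libraries did not overlap. Over the 2 HFD and 2 SD libraries with at least 10 macrophages, the log2 fold change was 1.82 ± 0.45 (standard error here and after each log2 fold change). In edgeR's quasi-likelihood test, with Benjamini-Hochberg adjustment over the 2108 genes tested, the adjusted p was 0.327, and the difference did not pass 0.05.

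Cd36 stood at 1301 and 917 CPM in the HFD libraries, against 690, 649 and 1930 CPM in the SD libraries. The HFD values lay above the 2 larger SD libraries and below the 8 cells of SD replicate 3. The log2 fold change was 0.67 ± 0.30 over 2 against 2 libraries (edgeR adjusted p = 0.79). Trem2 ran the other way, with 201 and 269 CPM on HFD against 467, 324 and 965 CPM on SD. All 3 SD libraries lay above both HFD libraries, and the 8 UMIs of SD replicate 3 came from 1 cell. Its log2 fold change was -0.85 ± 0.37 (edgeR adjusted p = 0.79).

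Lgals3, the lectin, had the lowest p of the list. Its level was 367 and 559 CPM in the HFD libraries, against 153, 64.9 and 0 CPM in the SD libraries, which did not overlap with them. The log2 fold change was 1.87 ± 0.45 (edgeR adjusted p = 0.327), the 6th lowest p among 2108 genes, with Lpl at rank 9. Lgals3 passed the threshold in 4 of 14 alternative settings and Lpl in 1 of 13, with adjusted p between 0.00126 and 1.0 for Lgals3 and between 0.00242 and 1.0 for Lpl by edgeR or DESeq2. Of these passes, 2 of the 4 for Lgals3 and the only one for Lpl came from fits that left 1 library in a diet, which is then assumed to vary like the libraries of the other diet. Both kept their direction in every one of these settings.

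The cholesterol carrier and its exporter showed smaller differences. Apoe had by far the most UMIs of the 9, with 22398 and 15464 CPM on HFD against 24770, 19226 and 24846 CPM on SD. The libraries overlapped, and the log2 fold change was -0.27 ± 0.20 (edgeR adjusted p = 0.902). Abca1 stood at 152 and 186 CPM on HFD, against 105, 130 and 844 CPM on SD, the last from 7 UMIs in 1 cell. Its log2 fold change over 2 against 2 libraries was 0.50 ± 0.45 (edgeR adjusted p = 0.92), and with SD replicate 3 added it was -0.040.

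Of the droplet and fatty acid binding genes, Plin2 was counted at 143 and 186 CPM on HFD, against 118, 97.3 and 0 CPM on SD, without overlap. The log2 fold change of 0.50 ± 0.46 did not pass (edgeR adjusted p = 0.924). Fabp5 was counted at 67.1 and 34.5 CPM on HFD, against 76.7, 0 and 0 CPM on SD, where a single cell held all 11 UMIs. Fabp4 and Fabp5 had too few counts for the test. Of the 7 genes that were tested, 0 passed, where 0.0474% of all genes did, a single gene (Il1b, lower on HFD, named after its value was seen). DESeq2 called 0 of them as well. At an unadjusted p under 0.05, Lpl, Cd36 and Lgals3 were higher and Trem2 was lower, where 4.08% of all genes were higher and 1.99% lower. Over the 2 HFD and 2 SD libraries of the test, diets that do not overlap were common, at 19.8% of all genes in the higher and 18.2% in the lower direction. A lack of overlap between those libraries alone thus says little about any of these genes. The share of genes without overlap when SD replicate 3 is added was not counted.

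**Figure D2:**
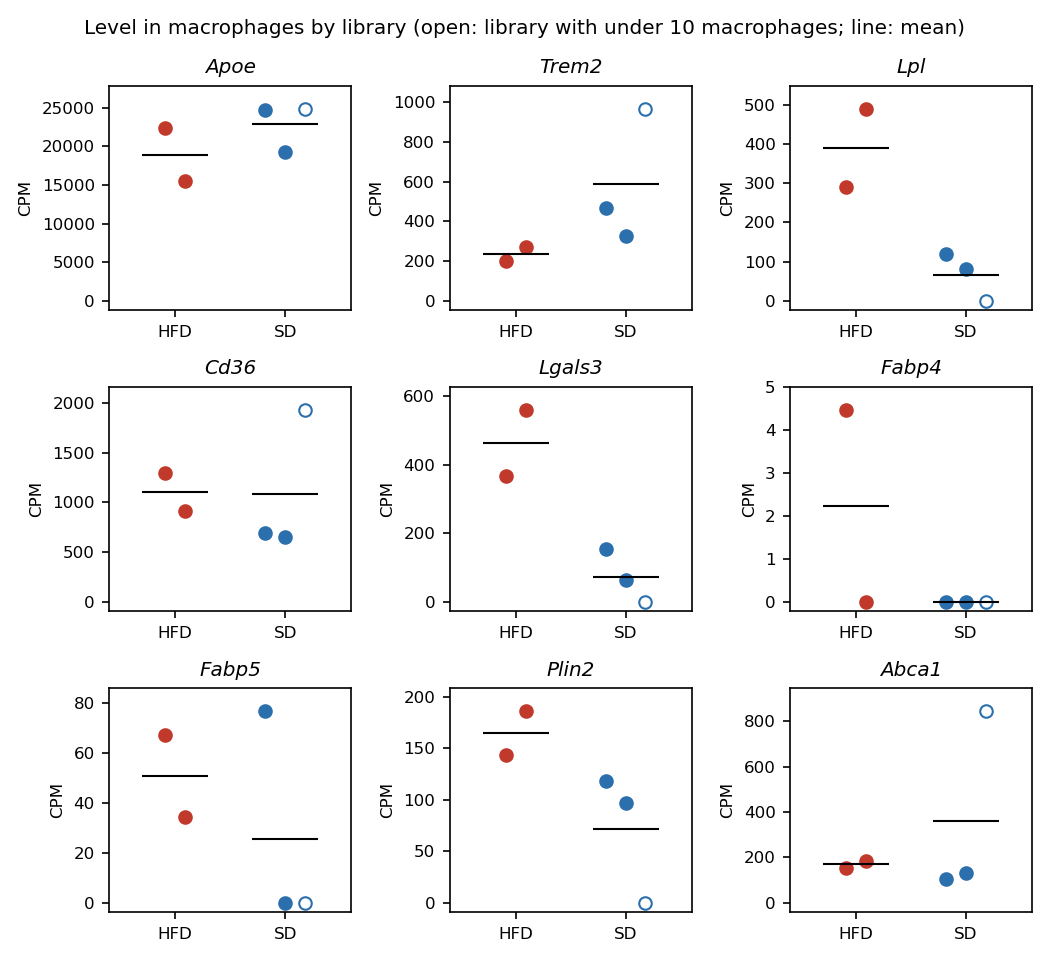
Level of each gene in the Macrophages (CPM over all UMIs of the Macrophages in a library, vertical axis, own scale per gene), 1 point per library, HFD left of SD, with the mean as a line. Open points mark SD replicate 3, which held 8 macrophages. Lpl, Lgals3 and Plin2 lay higher in both HFD libraries than in any SD library, and Trem2 lay lower.

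Project numbers in the authors' library key split the libraries into 2 sets, which no label explains. In the first set, HFD replicate 1 against the mean of SD replicates 1 and 2 gave log2 ratios of 1.54 for Lpl, 1.75 for Lgals3, 0.96 for Cd36, 0.41 for Plin2, 0.38 for Abca1, 0.03 for Apoe and -0.98 for Trem2. The other set held HFD replicate 2 and the 8 macrophages of SD replicate 3. It gave -1.07 for Cd36, -2.18 for Abca1, -0.68 for Apoe and -1.84 for Trem2, and no ratio for Lpl, Lgals3 and Plin2, which were at 0 in SD replicate 3. Cd36, Abca1 and Apoe thus differed in sign between the sets, where the ratio of the second set rests on those 8 cells.

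Most Lpl UMIs came from few cells in both diets. A UMI of Lpl was found in 24 of 82 HFD and 10 of 61 SD macrophages. The richest cell held 44 of 65 UMIs in HFD replicate 1 and 37 of 71 in HFD replicate 2. In SD the richest cells held 7 of 17 UMIs in replicate 1 and 4 of 5 in replicate 2. Without the richest cell of each library, Lpl stood at 97.8 and 257 CPM on HFD, against 74.8, 19.8 and 0 CPM on SD. The log2 fold change was then 1.53 (edgeR adjusted p = 0.973). Pooled over the libraries, the level was 369 CPM on HFD and 103 CPM on SD. With the richest 10% of macrophages left out of each diet (8 HFD and 6 SD cells), it was 86.9 CPM on HFD and 25.3 CPM on SD.

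Lgals3 was less dependent on its richest cell. It was counted in 25 of 82 HFD and 10 of 61 SD macrophages, and 5 or more UMIs were found in 9 HFD cells and 1 SD cell. The richest cells held 26 of 82 UMIs in HFD replicate 1 and 39 of 81 in HFD replicate 2, against 12 of 22 in SD replicate 1 and 2 of 4 in SD replicate 2. Without them the level was 261 and 309 CPM on HFD, against 77.2, 36.1 and 0 CPM on SD, and the log2 fold change was 2.12 (edgeR adjusted p = 0.499). The pooled level was 442 CPM on HFD and 122 CPM on SD, and 93.9 CPM on HFD and 25.5 CPM on SD without the richest 10% of each diet.

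For the other genes, the richest cell of each library was left out too, which took out 2 of 82 HFD and 3 of 61 SD cells. For Cd36, Trem2, Apoe and Abca1 the SD cells included the one with 7121 of the 8291 UMIs of SD replicate 3. Without the richest cell of each library, the pooled level of Cd36 was 1046 CPM on HFD and 642 CPM on SD, and that of Trem2 was 199 CPM on HFD and 315 CPM on SD, so both kept their direction. Plin2 stood at 108 CPM on HFD and 69.2 CPM on SD. Abca1 stood at 139 CPM on HFD and 56.4 CPM on SD, against 165 CPM on HFD and 141 CPM on SD with all cells. The cells left out held more of its UMIs on SD (7 of 15, 5 of 8 and 7 of 7) than on HFD (6 of 34 and 7 of 27). For Apoe, a single SD cell held 1419 UMIs, 39.9% of the Apoe UMIs of its library's macrophages. The pooled Apoe level was 19671 CPM on HFD and 23172 CPM on SD with all cells, and 18236 CPM on HFD and 16862 CPM on SD without the richest cell of each library, so the direction turned. The fitted log2 fold change was then -0.02 for Apoe and -0.66 for Trem2.

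**Figure D3:**
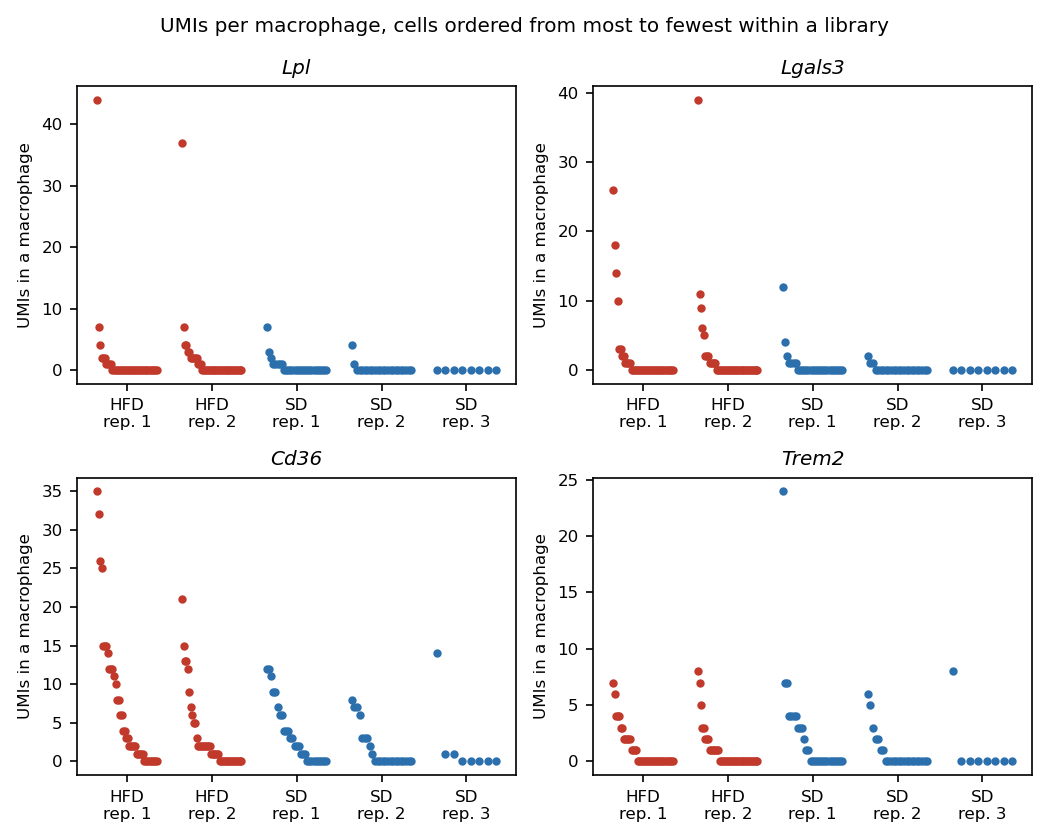
UMIs in every macrophage (vertical axis, linear) for Lpl, Lgals3, Cd36 and Trem2, 1 point per cell, ordered from most to fewest within each library, with HFD left of SD. A few HFD cells with up to 44 UMIs of Lpl and up to 39 of Lgals3 stood above the rest.

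Numbers of cells with a UMI depend on depth, so each macrophage was thinned to 500 UMIs, leaving 40 and 31 HFD cells and 29 and 14 SD cells (replicates 1 and 2). SD replicate 3 had 1 macrophage that deep and was left out. Thinning finds a UMI more often in cells rich in the gene. These shares therefore mix the number of cells that carry a gene with its UMIs per cell. Lgals3 was then found in 14.7% and 15.1% of HFD macrophages, against 3.1% and 1.10% of SD macrophages, a difference of 12.8 percentage points. Cd36 was found in 39.1% and 42.8% on HFD, against 25.9% and 21.8% on SD (17.1 points). For Plin2 the shares were 7.91% and 12.1% on HFD, against 2.43% and 2.76% on SD (7.39 points). Lpl differed less, with 7.91% and 10.0% on HFD against 3.35% and 7.22% on SD (3.67 points). Apoe was found in 83.6% and 90.2% on HFD, against 91.3% and 97.1% on SD (-7.34 points). Fabp5 was found in 3.45% and 2.02% on HFD, against 1.14% and 0% on SD, near its share in SCP. The libraries of the diets did not overlap for these 6 genes, with an exact two-sided permutation p of 0.333, the smallest that 2 against 2 libraries can give (0.5 after Benjamini-Hochberg adjustment over the 9 genes). Of the 3671 genes with at least 20 UMIs in these cells, 23.8% had higher shares in both HFD libraries and 11.1% lower shares in both, so such a lack of overlap is common. Trem2 and Abca1 differed by -1.17 and -0.227 points, within the spread between libraries. These readings depended on the depth. At 1000 UMIs per cell Trem2 differed by -10.5 points without overlap, with 14.6% and 16.9% on HFD against 28.9% and 23.6% on SD. Apoe and Fabp5 overlapped at that depth. The share of all genes without overlap at 1000 UMIs was not counted. Unthinned, Lgals3 was counted in 30% and 31.0% of HFD macrophages and 24.1%, 12.5% and 0% of SD macrophages, and Lpl in 25% and 33.3% on HFD and 27.6%, 8.33% and 0% on SD.

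The deepest cells gave a second view. At least 5000 UMIs were counted in 56 macrophages, 37 HFD (23 and 14 per library) and 19 SD (13, 5 and 1), with median depths of 8990 UMIs on HFD and 8799 on SD. Cd36 was counted in all 56 and Apoe in 55. Lgals3 was found in 13 of 37 HFD and 8 of 19 SD cells, and Lpl in 18 of 37 and 8 of 19. The level of Lpl in deep cells was 298 and 492 CPM in the HFD libraries, against 132, 87.8 and 0 CPM in the SD libraries. Lgals3 stood at 308 and 429 CPM on HFD, against 182, 43.9 and 0 CPM on SD, with 1 deep cell in SD replicate 3. Pooled, Lpl was at 372 CPM on HFD and 115 CPM on SD, and Lgals3 at 354 CPM on HFD and 138 CPM on SD. Much of this came from single cells. Without the richest deep cell of each library, Lpl was at 140 CPM on HFD and 61.7 CPM on SD, and Lgals3 at 170 CPM on HFD and 68.3 CPM on SD. Abca1 was found in 22 of 37 HFD and 6 of 19 SD cells, Plin2 in 17 of 37 and 6 of 19, and Trem2 in 24 of 37 and 16 of 19. The pooled level of Plin2 in deep cells differed little, at 143 CPM on HFD and 127 CPM on SD. Without the richest deep cell of each library it was 84.9 CPM on HFD and 84.8 CPM on SD. A deep macrophage carried a median of 5 of the 9 genes on HFD (2 to 8) and 4 on SD (2 to 7).

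Whether the genes shared cells depended on which pair was considered. Apoe and Cd36 were in nearly every deep macrophage and so accompanied each other gene. Of the less common ones, Lgals3 and Plin2 were carried together by 11 of the 56 deep cells, where the product of their shares within each library gives 8.19 cells. Lpl and Plin2 were together in 13 cells, where the product gives 10.7, and Lpl and Lgals3 in 11, where it gives 10.3. Trem2 and Lpl were together in 16 cells, under the product of 18.7, and Trem2 and Lgals3 in 16, where it gives 15.2. Most macrophages with Lpl or Lgals3 at this depth were thus not macrophages with both, as 15 carried Lpl alone of the pair, 10 carried Lgals3 alone and 20 neither.

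At 500 UMIs per cell, where a UMI is more often found in a cell rich in the gene, the ratios for Lpl, Lgals3 and Plin2 were higher. Over the 115 macrophages with that depth, thinning left an expected 2.85 cells with both Lpl and Lgals3, 2.92 times the product of shares (0.976 cells). The ratio was 3.53 for Lgals3 and Plin2 (3.73 against 1.06 cells) and 2.77 for Lpl and Plin2 (1.87 against 0.676 cells). It was 1.17 for Trem2 and Lpl, 1.20 for Trem2 and Lgals3, and 0.866 for Apoe and Lgals3. The depth matters for Trem2 and Lpl, whose ratio was 2.59 at 250 UMIs and 0.971 at 1000 UMIs, and for Trem2 and Lgals3 it was 0.838 at 250 UMIs and 1.08 at 1000 UMIs. At the same depths the ratio was 2.76 and 2.74 for Lpl and Lgals3, 2.97 and 2.00 for Lpl and Plin2, and 3.87 and 2.87 for Lgals3 and Plin2. Fabp5 had higher ratios at 500 UMIs, with 7.85 for Lpl, 6.77 for Plin2 and 6.20 for Lgals3 (1.91 against 0.308 cells). Only 6 of the 115 cells held Fabp5 before thinning. At 250 and 1000 UMIs its ratios were 6.52 and 5.00 with Lpl, 2.65 and 5.26 with Plin2, and 5.47 and 5.31 with Lgals3. Fabp5 with Trem2 gave 2.60 at 500 UMIs, while Fabp5 with Apoe (0.721) and with Abca1 (0.280) lay under 1. All of these are counts of few cells from 5 libraries, which share a source within a library, and no test was made of them.

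**Figure D4:**
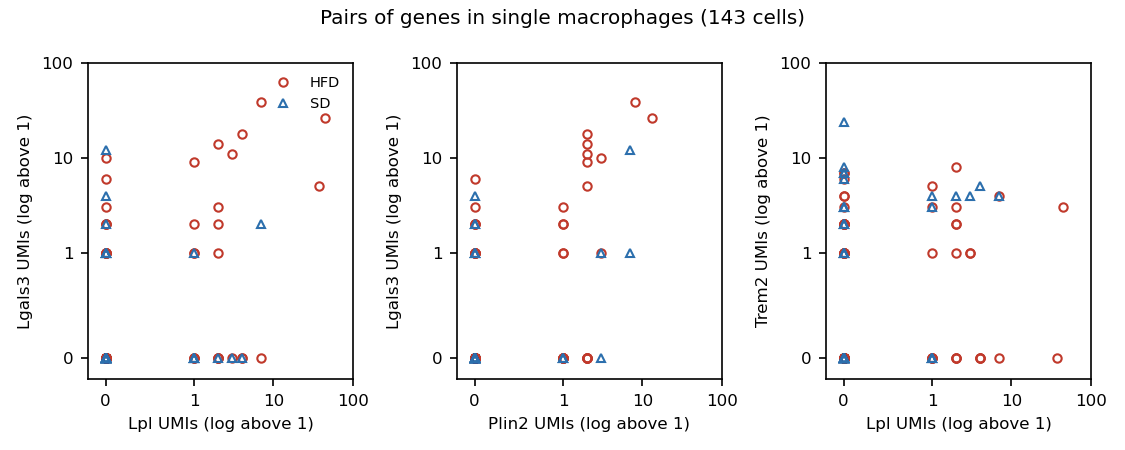
UMIs of 2 genes in each of the 143 macrophages, unthinned, 1 symbol per cell (red circles HFD, blue triangles SD), for Lgals3 against Lpl, Lgals3 against Plin2 and Trem2 against Lpl; both axes are linear up to 1 UMI and logarithmic above. The cells with most Lgals3 also held Plin2, while the SD cell with 24 UMIs of Trem2 held 0 of Lpl.

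Cells rich in a gene were also counted, with no test. They were picked for their counts, and those rich in Lpl, Plin2 or Trem2 had at least 7121 UMIs each. Other genes are found more often in cells that deep. Of the 10 macrophages with at least 5 UMIs of Lgals3 (9 HFD and 1 SD), 9 carried Plin2, 7 carried Lpl, 5 carried Fabp5 and 5 carried Trem2. Of the 5 with at least 5 UMIs of Lpl (4 HFD and 1 SD), 4 carried Lgals3. All 4 macrophages with at least 5 UMIs of Plin2 (2 HFD and 2 SD) carried Lgals3. Of the 11 macrophages with at least 5 UMIs of Trem2 (5 HFD and 6 SD), 3 carried Lpl, 3 carried Lgals3, 7 carried Plin2 and 8 carried Abca1. Over all 56 deep cells these numbers were 26, 21, 23 and 28. Trem2 was counted in 3 of the 5 cells rich in Lpl and in 3 of the 4 rich in Plin2.

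Single cells of both diets were rich in several of the genes. One macrophage of HFD replicate 1 with 8886 UMIs was the richest of its library in Lpl (44 UMIs), Lgals3 (26), Plin2 (13) and Fabp5 (8), and held 86 UMIs of Apoe and 3 of Trem2. In HFD replicate 2, a cell with 9126 UMIs held 39 of Lgals3, 8 of Plin2, 7 of Lpl and 0 of Trem2, and another with 12688 UMIs held 37 of Lpl, 7 of Abca1 and 5 of Lgals3. The SD macrophage with 1419 UMIs of Apoe had 13999 UMIs in all. It also held 24 UMIs of Trem2, 12 of Lgals3, 11 of Fabp5, 7 of Plin2 and 8 of Gpnmb, a lysosomal glycoprotein of lipid-laden macrophages, with 0 of Lpl. The cell richest in Apoe and Trem2 was therefore an SD cell, and the cells richest in Lpl and Lgals3 were HFD cells.

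Of the deep macrophages, 11 carried both Lgals3 and Plin2, 10 carried Lgals3 alone of the pair and 12 Plin2 alone. These were the pair of the 9 with the most similar levels over sums of cell type and library (Pearson r = 0.86 over 18 sums that share libraries and depth). Their promoters are shown here from RefSeq (GRCm38.p6), 250 bases before to 50 after the transcript start that the table uses, on the gene's strand, at chr14:47373610-47373909 (plus strand) for Lgals3 and chr4:86670010-86670309 (minus strand) for Plin2. For Lgals3 that start (47373860) is the outer end of the gene, while for Plin2 it (86670059) lies 158 bases inside the outer end at 86670217. Capitals mark AGGTCA, the half-site bound by nuclear receptors of lipid sensing such as PPARs and LXRs, read on either strand.
Lgals3: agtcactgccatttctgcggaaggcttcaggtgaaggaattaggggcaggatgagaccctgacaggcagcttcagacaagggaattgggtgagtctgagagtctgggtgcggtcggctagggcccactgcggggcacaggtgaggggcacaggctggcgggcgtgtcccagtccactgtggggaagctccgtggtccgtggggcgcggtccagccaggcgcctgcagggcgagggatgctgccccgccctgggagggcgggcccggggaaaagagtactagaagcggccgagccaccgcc
Plin2: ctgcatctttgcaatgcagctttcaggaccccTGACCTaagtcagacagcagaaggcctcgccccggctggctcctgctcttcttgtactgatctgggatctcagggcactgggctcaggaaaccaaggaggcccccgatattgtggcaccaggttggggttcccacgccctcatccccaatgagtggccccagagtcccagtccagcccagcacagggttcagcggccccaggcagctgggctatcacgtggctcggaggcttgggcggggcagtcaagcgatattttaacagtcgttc

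The Plin2 window held the half-site in reverse as TGACCT, beginning at position -218 from the start used by the table, and the Lgals3 window held none. Trem2 and Cd36 held it too, at -68 and -228 from theirs, which for Cd36 lies 53063 bases inside the outer end of the gene. The half-site lies in 16.3% of 32851 mouse promoters of this length, so its presence describes these letters only. The direct repeat AGGTCANAGGTCA lies in 0.0396% of them and in none of the 6 genes of the list with a promoter in the table (Apoe, Trem2, Cd36, Lgals3, Plin2 and Abca1). The letters TATAAA of the TATA box, on either strand in 13.6% of promoters, were found in Apoe at -96 and -100 and in Abca1 at -29. The 3 Apoe starts in use lie 2122, 2689 and 2912 bases inside the outer end of the gene. On the same build, Apoe lies at chr7:19696244-19701310, Trem2 at chr17:48346401-48352276, Lpl at chr8:68880555-68906932, Cd36 at chr5:17781690-17888959 and Abca1 at chr4:53030789-53159988. Fabp5 (chr3:10012585-10016610) and Fabp4 (chr3:10204342-10208616) lie on the same chromosome.

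Over 18 sums of cell type and library, the genes most like each of the 9 were named by their correlation of log2(CPM + 100), a description with no test. Apoe was most like Ctss (cathepsin S), Lyz2 (lysozyme) and Tyrobp, the adaptor of Trem2, with r between 0.95 and 0.96. Trem2 was most like Hpgds, C3ar1 and Lrrc25 (all 0.97). Plin2 was most like Fes (0.96) and Man2b1 (0.93), Lgals3 like Ptk2b (0.91) and Icam1 (0.90), Cd36 like Cd93 (0.91) and Rftn1 (0.89), and Abca1 like Rnaset2a and Pycard (both 0.89). Lpl had no gene closer than Slc7a8 and Cdk14 (both 0.80). Fabp4 was most like Etl4 (0.93), and Fabp5, with few UMIs, like Wdr45b (0.88).

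Summed over all cells, Lpl, Lgals3, Plin2 and Cd36 were higher in both HFD libraries than in the 3 SD libraries, among 14.3% of the 5510 genes tested that did so. Lpl stood at 284 ± 54.2 CPM on HFD and 53.1 ± 29.2 CPM on SD (standard deviations of 2 HFD and 3 SD libraries), scaled by TMM (log2 fold change 2.22 ± 0.54, edgeR adjusted p = 0.439). Lgals3 stood at 413 ± 0.956 CPM on HFD and 48.9 ± 62.0 CPM on SD (log2 fold change 2.72 ± 0.72, edgeR adjusted p = 0.654). The log2 fold changes were 1.33 ± 0.69 for Plin2, 1.15 ± 0.49 for Cd36, 0.62 ± 0.45 for Apoe, 0.47 ± 0.57 for Abca1, 1.85 ± 1.99 for Fabp4, -0.35 ± 0.50 for Trem2 and -0.48 ± 0.77 for Fabp5. Of the 9 genes, 0 passed, where 0.0907% of all genes did (S100a8, S100a9, Retnlg, Stfa2l1 and Slc7a11, named after their values were seen). Macrophages made up 70.2% and 39.6% of the cells in the HFD libraries and 36.3%, 29.6% and 20% in the SD libraries. More macrophages and more RNA per macrophage cannot be told apart in these sums.

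In other cell types few of the 9 genes had enough counts for a test. In mySC, log2 fold changes were 2.58 ± 0.92 for Apoe (edgeR adjusted p = 0.0569) and 2.93 ± 1.09 for Lgals3 (edgeR adjusted p = 0.0736), where 7.93% of the 656 genes tested passed. With RLE in place of TMM scaling both passed, with log2 fold changes of 2.78 for Apoe (edgeR adjusted p = 0.027) and 3.12 for Lgals3 (edgeR adjusted p = 0.0394). Markers of other cells in mySC moved with diet. Macrophage markers summed to 5054 and 3395 CPM on HFD against 1614, 88.4 and 0 CPM on SD, and neutrophil markers to 30016 and 45963 CPM on HFD against 46.1, 0 and 0 CPM on SD. Erythroid markers stood at 338846 and 0 CPM on HFD and at 0 in all SD libraries. The myelin markers summed to 7544 and 7793 CPM on HFD, against 26837, 50294 and 67376 CPM on SD. Of the 8 mySC with Lgals3, 3 carried at least 10 UMIs of neutrophil markers. At least 3 macrophage markers were carried by 6 of them, which held 55 of its 64 UMIs. For Apoe, a single cell held 242 of 245 UMIs in HFD replicate 1, 96 of 107 in HFD replicate 2 and 61 of 94 in SD replicate 1. These 3 mySC held 399 UMIs of Apoe, of which 338 lay in the 2 that carried at least 3 macrophage markers. The part of all these cells in the differences was not tested. In nmSC, Fabp4, Cd36 and Apoe had log2 fold changes of 0.98 ± 2.84, 0.94 ± 2.38 and 0.63 ± 1.64, and 0% of the 327 genes tested passed.

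Among other genes of lipid handling, more had a negative than a positive log2 fold change in Macrophages. Of 52 further genes of uptake, efflux, droplets, lysosomal lipid breakdown and lipid-laden macrophages, 14 had enough counts in Macrophages. Of these, 4 had a positive and 10 a negative log2 fold change, with a median of -0.12 against 0.0058 over all 2108 genes, and 0 passed the test. The lowest p values in the higher direction belonged to Pltp, the phospholipid transfer protein, with 552 ± 47.2 CPM on HFD and 337 ± 37.5 CPM on SD (log2 fold change 0.69 ± 0.34, edgeR adjusted p = 0.82), and to the protease Ctsb (0.49 ± 0.26, edgeR adjusted p = 0.841), followed by Acsl4 (0.40 ± 0.72) and Lgals1 (0.03 ± 0.30). In the lower direction they were Ctsd, a lysosomal protease (-0.82 ± 0.50), Tyrobp (2104 ± 113 CPM on HFD and 2646 ± 123 CPM on SD, -0.33 ± 0.22), the cholesterol carrier Npc2 (-0.30 ± 0.32) and Anxa5 (-0.27 ± 0.37). Over all cells, 32 of the 52 had enough counts, 20 with a positive and 12 with a negative log2 fold change, and 0 passed.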

How the data were processed

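Cell Ranger 3.1.0 and mm10 are named in the submitters' processing notes, and the authors deposited raw UMI counts per gene and cell and a table with each cell's library, cell type and mitochondrial percent, which was not used in a test. How cells were filtered and doublets treated before deposit is not stated in the labels or headers, and no doublet caller was run. Libraries that the tables name as controls were read as SD, since labels and tables both hold 2 diets with HFD in common. HFD replicate 3 was not analysed here. Library totals ranged from 37744 to 349450 UMIs. No label ties a library to an animal of its own, and the p-values thus reflect only how these libraries vary, possibly for technical reasons.

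Sums per library and cell type were fitted in R 4.3.3 by edgeR 4.0.16 (TMM after filterByExpr, robust quasi-likelihood, a single term for diet, Benjamini-Hochberg at 0.05), with at least 10 macrophages per library, or at least 3 cells in other types. The pipeline was run on simulated sums with a fixed spread and no single cells, which checks the code and not how well it fits these data. CPM per library divide by all UMIs of the cell type in that library; means ± standard deviation of fitted genes are TMM-scaled over tested genes and lie higher. Standard errors were derived from the F statistic. Shares at 500 UMIs per cell are expectations over all draws without replacement. Intervals and floors of 3 counts cover counting error only. Same-numbered libraries did not deviate together (r = -0.032 in Macrophages, 0.257 and -0.0996 over all cells). Named genes were the 9, the 4 of lowest p per direction of the wider list, and the genes most like each of the 9 (at least 50 UMIs, sums of at least 5 cells and 5000 UMIs). The 9 genes, the lists and the tests were chosen with earlier results of these data known. Promoters were read from RefSeq (GRCm38.p6). Other settings were DESeq2 1.42.0, RLE scaling, no filter, a replicate block, the project number of the library key as a term, leaving out replicates, thinning, other cell minimums, and leaving out cells with markers of other types, neutrophil-like cells or the richest cell. Macrophages with at least 1000 UMIs, or at least 3 markers, and macrophages without the richest 5% or 10% of each diet, were added after seeing the data.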

Additional observations from a re-analysis of the deposited data

How the results depend on the processing

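With 2 against 2 or 2 against 3 libraries, and 1 cell holding most UMIs of some genes, only large differences could pass, and the number of calls moved with the setting. In Macrophages (0 genes higher and 1 lower as reported), no filter gave 3 higher, the replicate block 3 higher and 2 lower, thinning to at most 1000 UMIs 1 higher and 0 lower, and leaving out cells with markers of other types 1 higher and 0 lower. Leaving out 1 replicate gave 1 to 20 higher and 1 to 6 lower. Over all cells (5 higher and 0 lower), DESeq2 gave 9 higher, no filter 43 higher and 4 lower, the replicate block 49 higher and 15 lower, the project number as a term 40 higher and 17 lower, and leaving out neutrophil-like cells 0 higher. Leaving out 1 replicate gave 0 to 41 higher and 0 to 13 lower.

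In Macrophages, Lgals3 passed with no filter (log2 fold change 1.96, adjusted p = 0.0471), with the replicate block (1.86, 0.0213), without HFD replicate 1 (2.16, 0.00126) and without SD replicate 1 (2.81, 0.0112), and Lpl passed without HFD replicate 1 (2.17, 0.00242), all by edgeR; without either replicate 1 a diet has 1 library, assumed to vary like those of the other diet. In mySC, Apoe (2.78, adjusted p = 0.027) and Lgals3 (3.12, 0.0394) passed with RLE scaling. Over all cells Lgals3 passed with no filter (2.83, 0.0166), the replicate block (2.57, 0.0011), the project number as a term (2.90, 0.0249) and thinning (3.86, 0.0495), and Lpl with the replicate block (2.04, 0.0091). The numbers were not shown to pair the libraries, so the block results are a description. Of 96 recomputed log2 fold changes in Macrophages, 2 turned, Apoe with thinning (0.0062) and Abca1 with at least 3 cells per library (-0.040). Over all cells 6 of 101 turned, Apoe without HFD replicate 1 (-0.061; leaving out 1 replicate gave up to 1.16), Fabp4 with the project number as a term (-0.21) and without HFD replicate 2 (-5.13; up to 2.87 without others), and Fabp5 with the project number as a term (0.074), without HFD replicate 2 (0.14) and without SD replicate 1 (0.052; down to -1.31 without others). The share difference turned for Trem2 at 250 UMIs (0.351 points), unthinned (9.03) and without HFD replicate 1 (2.13; down to -4.46 without others), and for Abca1 at 250 UMIs (0.632), unthinned (15.6), without HFD replicate 1 (1.82) and without SD replicate 1 (0.603; down to -2.27 without others). The pooled log2 ratio of Apoe turned without the richest cell of each library (0.11) and without the richest 5% (0.21) or 10% (0.24) of each diet. The cause was not tested. The tests of SCP and nmSC with at least 5 cells, and any test of repairSC, were not run, as too few libraries held such cells.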
